A study of Mus musculus with 8 samples.

Results

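The genes described here are 10 genes of MHC class I antigen presentation, B2m, H2-K1, Tap1, Tap2, Tapbp, Psmb8, Psmb9, Psmb10, Psme1 and Psme2. They were chosen by name, through the transcript that each array probe was designed for, and they are 10 of the 18539 genes with a named probe on the array. RNA was measured in RAW 264.7, a macrophage-like line derived from a BALB/c mouse and transformed by Abelson murine leukaemia virus, on dual-colour Agilent arrays. Each array set RNA of bacteria-treated cells, labelled with Cy5, against RNA of time-matched untreated cells, labelled with Cy3. Cells were treated for 6 hours at a multiplicity of infection of 1 with *Lactobacillus acidophilus* (2 arrays), *Bacillus clausii* (3 arrays) or *Bifidobacterium bifidum* (3 arrays), and the untreated cells of each array received no bacteria. The design text states 3 biological replicates in each case, and 2 *L. acidophilus* arrays were analysed here.

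MHC class I molecules show peptides from inside the cell to CD8+ T cells. The peptides are cut by the proteasome, carried into the endoplasmic reticulum by a transporter, and fitted into a class I heavy chain that is paired with beta-2 microglobulin. In cells exposed to interferon gamma the standard catalytic subunits of the proteasome are replaced by the immunoproteasome subunits, and a separate activator, PA28, can dock onto its ends. Macrophages use this route to present peptides of microbes and of their own proteins, and interferons raise most of its genes together through factors such as IRF1 and the class I transactivator NLRC5.

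Of the 10 genes, 6 lie on chromosome 17 within or next to the major histocompatibility complex: Tapbp, H2-K1, Psmb9, Tap1, Psmb8 and Tap2. Psmb9, Tap1, Psmb8 and Tap2 follow each other in the RefSeq gene table. Psme1 and Psme2 are both on chromosome 14, B2m is on chromosome 2 and Psmb10 is on chromosome 8. The 250 bases before the start of 9 of the genes were taken from RefSeq promoters of build GRCm38.p6, and Tap2 had no entry. They were searched on both strands for the interferon regulatory factor core AANNGAAA, the X2 core TGACG, which is a cyclic AMP response element type site, and the Y box CCAAT. The 3 motifs do not overlap each other in the windows shown. The genome is that of another mouse strain than BALB/c, which matters most for the polymorphic H2-K1. The 4 sequences run 5′ to 3′ on the gene's strand and end at the base before the start, with every match in capitals, also where it lies on the other strand. B2m and H2-K1 are shown because each holds all 3 motifs, Tap1 because its window is shared with Psmb9, and Psmb8 because it holds none.
B2m, chr2:122147437-122147686, plus strand: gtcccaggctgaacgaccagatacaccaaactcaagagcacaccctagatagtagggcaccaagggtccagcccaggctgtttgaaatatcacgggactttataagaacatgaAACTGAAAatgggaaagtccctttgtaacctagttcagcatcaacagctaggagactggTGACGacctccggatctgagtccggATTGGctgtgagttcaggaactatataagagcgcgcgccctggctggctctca
H2-K1, chr17:34000348-34000597, minus strand: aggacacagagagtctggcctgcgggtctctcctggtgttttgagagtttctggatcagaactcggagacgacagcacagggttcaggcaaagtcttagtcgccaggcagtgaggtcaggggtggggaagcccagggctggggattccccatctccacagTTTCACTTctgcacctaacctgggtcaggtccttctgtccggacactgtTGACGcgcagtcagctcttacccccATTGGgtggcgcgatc
Tap1, chr17:34187306-34187555, plus strand: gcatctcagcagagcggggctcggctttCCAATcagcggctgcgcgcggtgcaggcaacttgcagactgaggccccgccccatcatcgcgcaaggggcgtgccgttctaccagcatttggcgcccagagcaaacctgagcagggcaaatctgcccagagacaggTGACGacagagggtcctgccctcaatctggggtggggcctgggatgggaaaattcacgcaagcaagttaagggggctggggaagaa
Psmb8, chr17:34197945-34198194, plus strand: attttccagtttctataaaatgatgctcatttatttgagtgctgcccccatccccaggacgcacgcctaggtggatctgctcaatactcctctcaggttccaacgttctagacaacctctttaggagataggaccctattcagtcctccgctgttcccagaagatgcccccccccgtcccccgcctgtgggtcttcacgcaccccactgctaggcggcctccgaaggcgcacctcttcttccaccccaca

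In B2m the interferon regulatory factor core lay 137 to 130 bases before the start, the X2 core 78 to 74 bases and the Y box 53 to 49 bases before it. H2-K1 held them in the same order, at 90 to 83, 41 to 37 and 16 to 12 bases. Tap1 and Psmb9 start 226 bases apart on opposite strands, so that their windows overlap and hold the same X2 core and the same Y box. The X2 core was found before 5 of the 9 genes (B2m, Tap1, Psmb9, Psme2 and H2-K1), the Y box before 5 (B2m, Tap1, Tapbp, Psmb9 and H2-K1) and the interferon regulatory factor core before 2 (B2m and H2-K1). Among 32851 promoters of the same length, 17.8% held the X2 core, 33.8% the Y box, 21.3% the interferon regulatory factor core and 1.08% all 3. A match describes the letters only, and Psmb8, Psmb10 and Psme1, without a match, only lack these letters in this window.

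The 8 arrays came from 2 slides. For *B. clausii* and *B. bifidum*, replicates 1 and 2 were on slide 2 and replicate 3 on slide 1. Slide 1, scanned with an extended range, also carried all of *L. acidophilus*. Over all genes, arrays of the same strain on different slides had log2 ratios that correlated between -0.00139 and 0.00747, while arrays of different strains on the same slide correlated between 0.29 and 0.57. *B. clausii* replicate 3 stood apart, with 12514 spots well above background against 21453 to 26453 on the other 7 arrays. Results are therefore given for each slide, and *L. acidophilus*, present on slide 1 alone, cannot be told apart from its slide in any comparison with slide 2. Nothing ties an array to a culture of its own, so that p-values measure only how far these arrays differ, and that spread may be technical. Dyes were never swapped, and the small number of arrays limits the precision. Each ratio was taken against the untreated channel of its own array. Variation between untreated channels is thus part of the ratios and is not separated in them.

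The sample was checked against markers of cell types. Of 8 macrophage markers 7 had a probe, and 5 of these were well above background in untreated cells on all 8 arrays. None of the 5 T cell, 4 B cell, 4 dendritic cell, 5 fibroblast and 4 epithelial markers was above background on all 8. Of the neutrophil markers 3 had a probe, and S100a8, a calcium-binding protein of myeloid cells, was above background on all 8.

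With *B. clausii* on slide 2, 9 of the 10 genes fell and Tap2 did not pass the test. In that comparison 30.9% of all genes tested were called lower and 55.8% were called in either direction, so that a fall was common on these arrays. The median log2 ratio of the 10 genes was -0.53, beside -0.01 over all genes. All 10 were below 0 on both *B. clausii* arrays of slide 2, where the medians were -0.49 and -0.57. Calls are limma's moderated test with a Benjamini-Hochberg adjusted p under 0.05 over all genes, and log2 ratios are treated over untreated cells. In these bulk samples fewer cells expressing a gene and less RNA per cell cannot be told apart.

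**Figure D1:**
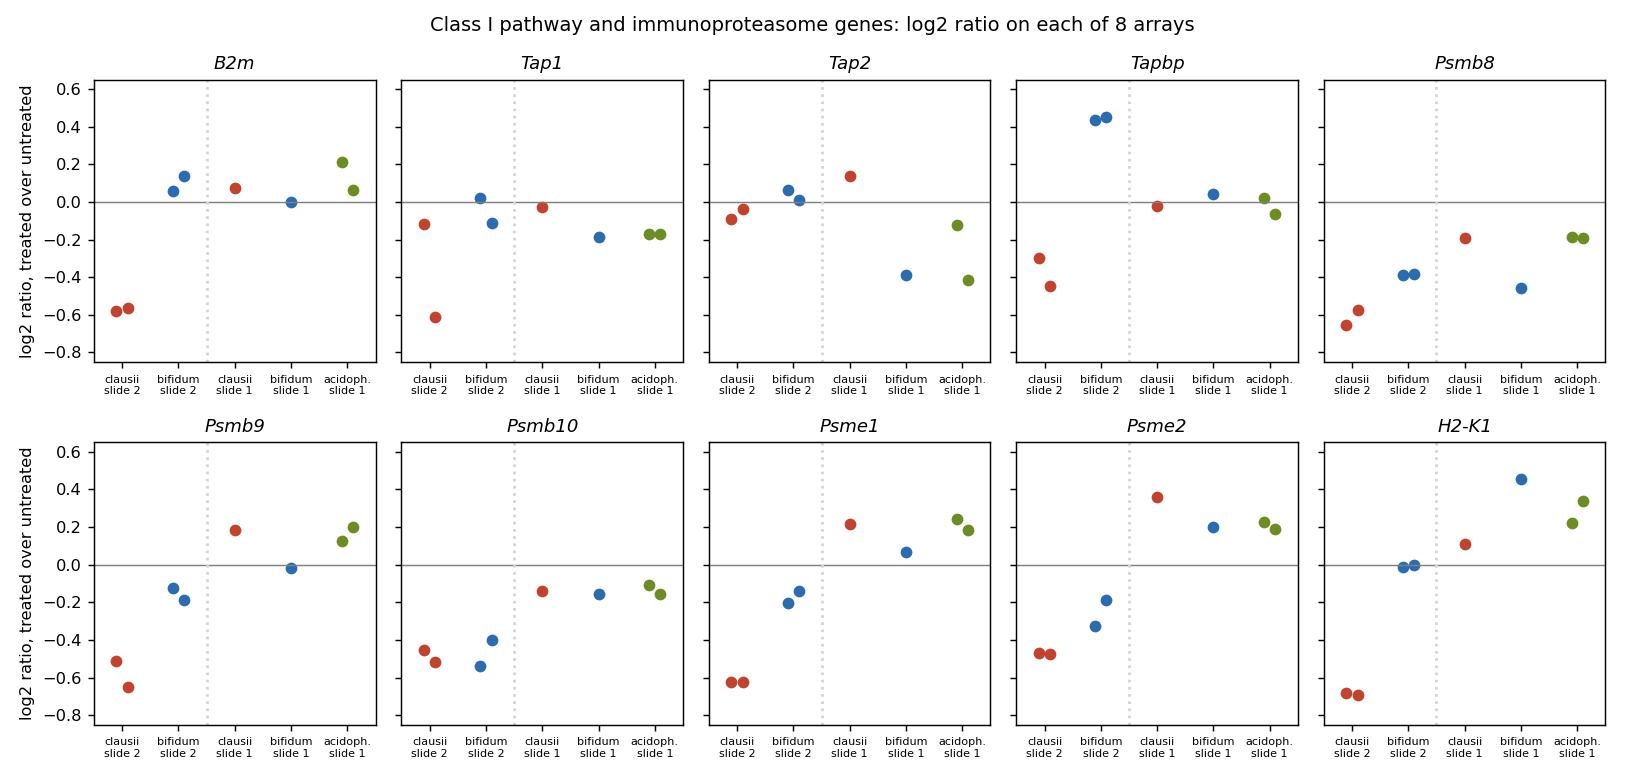
Log2 ratio of treated over untreated cells for each of the 10 genes on each of the 8 arrays, with slide 2 and slide 1 marked. The *B. clausii* arrays of slide 2 lie below 0 for all 10 genes, while the *B. clausii* array of slide 1 lies above 0 for 6 of them.

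H2-K1 and B2m form the class I molecule itself, H2-K1 as the heavy chain and B2m as its light chain. H2-K1 had log2 ratios of -0.68 and -0.69 on the *B. clausii* arrays of slide 2 and of 0.11 on that of slide 1. With *B. bifidum* it had -0.012 and -0.0015 on slide 2 and 0.46 on slide 1, and with *L. acidophilus* 0.22 and 0.34. Only the *B. clausii* arrays of slide 2 were clearly below 0. The fall with *B. clausii* on slide 2 was -0.69 ± 0.04 (SE, 2 arrays; adjusted p = 6.86e-05), which left 0.621 of the untreated level. B2m followed closely, with -0.58 and -0.56 on the *B. clausii* arrays of slide 2 and 0.07 on that of slide 1. B2m with *B. bifidum* had 0.06 and 0.14 on slide 2 and 0.00 on slide 1, and with *L. acidophilus* 0.21 and 0.06. Again the *B. clausii* arrays of slide 2 were the only ones far from 0 for the probe used, though not for the second B2m probe. B2m fell there by 0.57 ± 0.05 on the log2 scale (SE, 2 arrays; adjusted p = 0.000221). With *B. bifidum* on slide 2 the fitted log2 ratio of B2m was 0.10 (adjusted p = 0.178; -0.89 and a called fall, adjusted p = 0.0117, with median centring) and that of H2-K1 was -0.01 (adjusted p = 0.928).

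Tap1 and Tap2 encode the 2 chains of the peptide transporter, and Tapbp encodes tapasin, which holds the empty class I molecule to it. Both transporter genes were dim, with Cy3 median signals of 93.5 to 272.5 on slide 2. Tap1 had log2 ratios of -0.12 and -0.61 on the *B. clausii* arrays of slide 2 and of -0.03 on that of slide 1, and its fall of -0.36 ± 0.11 (SE, 2 arrays; adjusted p = 0.0311) was the least secure of the 9. Without *B. clausii* replicate 2 the value was -0.12 (adjusted p = 0.253), so that this call rested on 1 array. Tap1 with *B. bifidum* had 0.02 and -0.11 on slide 2 and -0.18 on slide 1, and with *L. acidophilus* -0.17 on both arrays. Tap2 stayed near 0 with *B. clausii*, at -0.09 and -0.04 on slide 2 and 0.14 on slide 1, where neither of its channels was well above background. Tap2 had 0.06 and 0.01 with *B. bifidum* on slide 2 and -0.39 on slide 1, and -0.12 and -0.42 with *L. acidophilus*.

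With the probe used, tapasin moved in opposite directions with the 2 strains of slide 2. Tapbp had -0.30 and -0.44 with *B. clausii* on slide 2 and -0.02 on slide 1. With *B. bifidum* it had 0.43 and 0.45 on slide 2 and 0.04 on slide 1, and with *L. acidophilus* 0.02 and -0.06. It fell with *B. clausii* on slide 2 (-0.37 ± 0.05, SE, 2 arrays; adjusted p = 0.00134) and rose with *B. bifidum* there (0.44 ± 0.05, SE, 2 arrays; adjusted p = 0.00101), although with each array centred on its median in place of loess the *B. bifidum* value was -0.53. The difference between the strains, -0.81 ± 0.07 (SE; adjusted p = 0.000649), was the largest of the 10 for the probes used. The second Tapbp probe, a dim one, was near 0 with *B. clausii* on slide 2 (-0.08 and -0.07) and above 0 with *B. bifidum* there (0.39 and 0.31).

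Psmb8, Psmb9 and Psmb10 are the catalytic subunits of the immunoproteasome. With the probe used, though not with its second probe, Psmb8 was below 0 on every array, with -0.66 and -0.57 for *B. clausii* on slide 2 and -0.19 on slide 1. *B. bifidum* gave Psmb8 log2 ratios of -0.39 and -0.38 on slide 2 and -0.46 on slide 1, and *L. acidophilus* gave -0.18 and -0.19. Psmb8 fell with *B. clausii* on slide 2 by 0.61 ± 0.04 on the log2 scale (SE, 2 arrays; adjusted p = 7.8e-05) and with *B. bifidum* on slide 2 by 0.39 (adjusted p = 0.000738). Psmb10 was likewise below 0 on all 8 arrays, at -0.45 and -0.52 with *B. clausii* on slide 2 and -0.14 on slide 1. Psmb10 had -0.54 and -0.40 with *B. bifidum* on slide 2 and -0.16 on slide 1, and -0.11 and -0.16 with *L. acidophilus*. It fell by 0.49 with *B. clausii* and by 0.47 with *B. bifidum* on slide 2 (adjusted p = 0.000374 and 0.000708), and was the gene whose *B. clausii* and *B. bifidum* arrays overlapped there.

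Psmb9 was far from 0 with *B. clausii* on slide 2 alone. Its log2 ratios were -0.51 and -0.65 with *B. clausii* on slide 2 and 0.18 on slide 1. With *B. bifidum* they were -0.12 and -0.19 on slide 2 and -0.02 on slide 1, and with *L. acidophilus* 0.13 and 0.20. The fall with *B. clausii* on slide 2 was -0.58 ± 0.05 (SE, 2 arrays; adjusted p = 0.000204), and with *B. bifidum* the value of -0.16 did not pass (adjusted p = 0.0538).

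Psmb5, Psmb6 and Psmb7 are the standard catalytic subunits whose places Psmb8, Psmb9 and Psmb10 take in the immunoproteasome, Psmb8 for Psmb5, Psmb9 for Psmb6 and Psmb10 for Psmb7. With loess they did not move together, while with median centring Psmb6 and Psmb7 were below 0 with *B. clausii* on slide 2. Psmb5 had -0.52 and -0.52 with *B. clausii* on slide 2 and -0.16 on slide 1, and fell there by 0.52 ± 0.05 on the log2 scale (SE, 2 arrays; adjusted p = 0.000207), close to its counterpart Psmb8. Psmb6 had 0.28 and 0.30 with *B. clausii* on slide 2 and rose (0.29 ± 0.04, SE, 2 arrays; adjusted p = 0.00116) where Psmb9 fell, although Psmb6 was at -0.30 with median centring. Psmb7, at -0.09 and -0.03 with *B. clausii* on slide 2, did not pass the test (-0.06, adjusted p = 0.272). It was called higher with the scanner's own processed signals (0.24, adjusted p = 0.0406) and lower with median centring (-0.74, adjusted p = 0.0232). With *B. bifidum* on slide 2 Psmb5 fell (-0.41, adjusted p = 0.000878), Psmb6 rose (0.16, adjusted p = 0.0173, but -0.82 with median centring) and Psmb7 fell (-0.16, adjusted p = 0.0201). The Psmb7 call was lost with the processed signals (-0.056, adjusted p = 0.559) and the deposited table (adjusted p = 0.562), and without *B. bifidum* replicate 1 (adjusted p = 0.112) or replicate 2 (adjusted p = 0.097). The Psmb6 call with *B. bifidum* was lost without replicate 1 (adjusted p = 0.0702) or replicate 2 (adjusted p = 0.106), without background correction (adjusted p = 0.0633) and with the processed signals (0.099, adjusted p = 0.396), which also ended its call with *B. clausii* (0.13, adjusted p = 0.249).

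**Figure D2:**
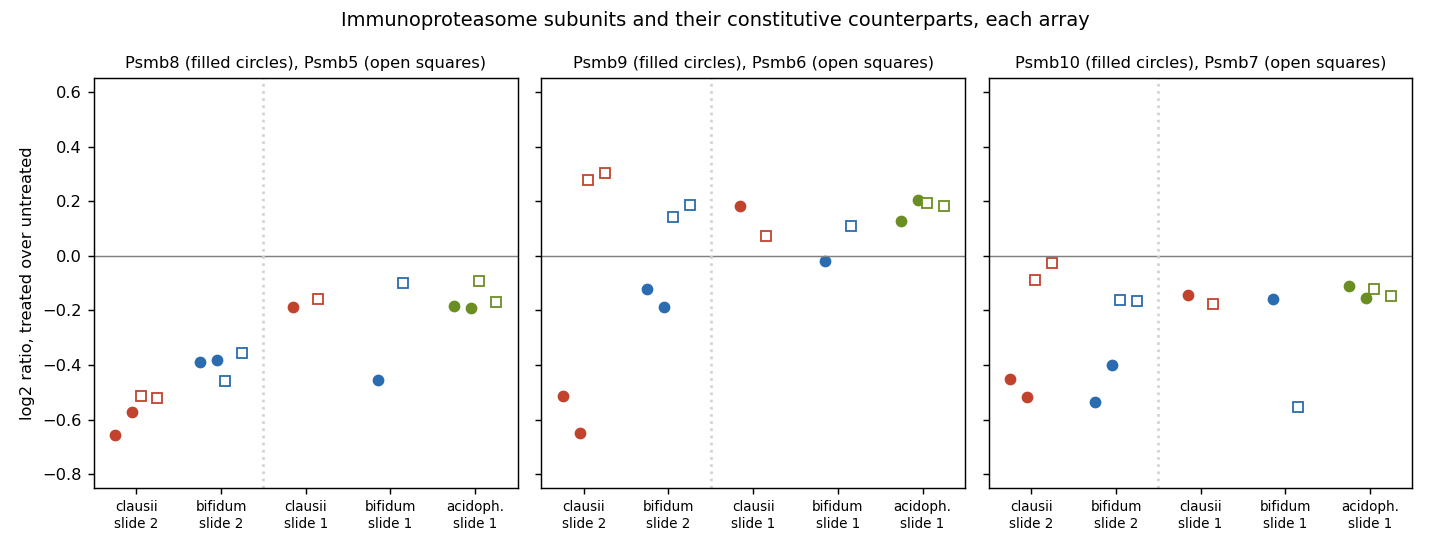
Log2 ratio of treated over untreated cells of each immunoproteasome subunit on each array, beside that of the standard subunit whose place it takes. On the *B. clausii* arrays of slide 2, Psmb8 and Psmb5 lie between -0.66 and -0.52, while Psmb9 lies below 0 and Psmb6 above it.

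Psme1 and Psme2 encode the alpha and beta subunits of PA28. Psme1 had -0.62 on both *B. clausii* arrays of slide 2 and 0.22 on that of slide 1. Psme1 with *B. bifidum* had -0.20 and -0.14 on slide 2 and 0.07 on slide 1, and with *L. acidophilus* 0.24 and 0.19. Psme2 had -0.47 and -0.48 with *B. clausii* on slide 2 and 0.36 on slide 1. Psme2 with *B. bifidum* had -0.32 and -0.19 on slide 2 and 0.20 on slide 1, and with *L. acidophilus* 0.23 and 0.19. Both genes were below 0 on all 4 arrays of slide 2 and above 0 on all 4 arrays of slide 1. With *B. clausii* on slide 2 Psme1 fell by 0.62 ± 0.04 on the log2 scale and Psme2 by 0.47 ± 0.05 (SE, 2 arrays each; adjusted p = 7.57e-05 and 0.000355). With *B. bifidum* on slide 2 the falls of Psme1 (-0.17, adjusted p = 0.0187) and of Psme2 (-0.26, adjusted p = 0.00675) also passed. The Psme1 call did not hold without *B. bifidum* replicate 1 (adjusted p = 0.155) or replicate 2 (adjusted p = 0.0511), and the Psme2 call did not hold without replicate 1 (adjusted p = 0.0727).

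With *B. bifidum* on slide 2, then, Psmb8, Psmb10, Psme1 and Psme2 fell, Tapbp rose and 5 genes did not pass. Over all genes 40.1% were called in that comparison, 24.8% lower and 15.3% higher, against 4 lower and 1 higher of the 10. The median of the 10 was -0.10, beside -0.01 over all genes. With median centring 7 of the 10 fell with *B. bifidum* and none rose. Over all settings, up to 6545 of all genes fell with it and as few as 27 rose. Median centring also moved the median of all genes to -0.42 with *B. bifidum* and to -0.30 with *B. clausii*. It moved the medians of the 10 to -1.01 and -1.17. In that setting the medians of some related lists with *B. bifidum* were about as low, at -1.03 for the other 20S core genes, -0.92 for the cap and -0.94 for the macrophage markers. Those of the other class I heavy chains and of the trimming and loading helpers were not, reaching at lowest -0.46 and -0.57 over all settings.

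The direct comparison of *B. clausii* with *B. bifidum* on slide 2, in which a dye effect shared by these arrays cancels, found 6 of the 10 genes lower with *B. clausii* and none higher. Of all genes 15.6% were lower and 31.4% were called in either direction. The 6 were Tapbp, H2-K1 (-0.68, adjusted p = 0.00071), B2m (-0.67, adjusted p = 0.00117), Psme1 (-0.45, adjusted p = 0.00227), Psmb9 (-0.43, adjusted p = 0.00609) and Psmb8 (-0.23, adjusted p = 0.0279). Psme2 (-0.22, adjusted p = 0.0536), Tap1 (-0.32, adjusted p = 0.182), Tap2 (-0.10, adjusted p = 0.522) and Psmb10 (-0.02, adjusted p = 0.89) did not pass. The *B. clausii* arrays lay wholly below the *B. bifidum* arrays for 9 of the 10 genes, all but Psmb10, where 64.4% of all genes showed no overlap in either direction. With median centring none of the 10 passed, and 4 of all genes did.

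With *L. acidophilus* on slide 1, H2-K1 (0.28 ± 0.04, adjusted p = 0.0199), Psme1 (0.21, adjusted p = 0.0298) and Psme2 (0.21, adjusted p = 0.0434) rose and Psmb8 (-0.19, adjusted p = 0.0395) fell. Of all genes, 12% were called there, 5.92% higher and 6.13% lower. The other 6 genes did not pass, Tap2 at -0.27 with an adjusted p of 0.0648 and Psmb9 at 0.16 with 0.0895. These calls were fragile, since none of the 4 held without *L. acidophilus* replicate 2 or with the scanner's processed signals, and Psmb8 was at 0.36 with median centring. The H2-K1 rise rested on 1 of its 3 probes, since the other probes were below 0 on both *L. acidophilus* arrays and the mean of its probes was 0.038 (adjusted p = 0.513).

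The *B. clausii* array of slide 1 did not repeat the fall seen on slide 2. The *B. clausii* ratios were lower on slide 2 than on slide 1 for 8 of the 10 genes, by up to -0.84 ± 0.07 for Psme1 (SE; adjusted p = 0.000712), where 22.7% of all genes were lower and 38.6% were called. Tap1 (-0.34, adjusted p = 0.211) and Tap2 (-0.20, adjusted p = 0.244) did not pass. The *B. bifidum* ratios were lower on slide 2 for Psmb10, Psme2 and H2-K1 and higher for Tap2 and Tapbp, where 17.4% of all genes were lower and 12.4% higher, 29.7% in all. For H2-K1 this held for the probe used, while the other 2 probes were higher on slide 2 than on slide 1. Each strain has 1 array on slide 1, whose spread was assumed to be like that of the others, and the *B. clausii* array there is the dim one with 12514 spots well above background. These slide differences are thus those of single arrays. With the 3 arrays of each strain averaged over both slides, 1 of the 10 genes fell with *B. clausii*, Psmb8 (-0.47 ± 0.09, SE, n = 3; adjusted p = 0.0417), where 4.56% of all genes were called and 2.56% were lower. Psmb10 (-0.37 ± 0.10, adjusted p = 0.0576), B2m (-0.36, adjusted p = 0.0963) and H2-K1 (-0.42 ± 0.16, adjusted p = 0.119) did not pass. Without *B. clausii* replicate 3 the number was 9, where 5425 of all genes were called.

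Averaged in the same way, none of the 10 genes passed with *B. bifidum*, where 1.44% of all genes were called. In limma 3 of the 10 were under an unadjusted p of 0.05, as were 2837 of all 15180 genes tested. Psmb8 (-0.41 ± 0.09, adjusted p = 0.0659), Psmb10 (-0.37, adjusted p = 0.0952) and Tapbp (0.31 ± 0.11, adjusted p = 0.162) came nearest. Without *B. bifidum* replicate 3, or without *B. clausii* replicate 3, 2 of the 10 passed, where 2032 and 1335 of all genes were called. None passed with *L. acidophilus*, where 0 of all genes were called (0% of 15181). There none of the 10 was under an unadjusted p of 0.05, while 1105 of all genes were. The slide as a fixed block fits a slide shift common to the strains, although that of Tapbp was -0.35 with *B. clausii* and 0.40 with *B. bifidum*. In this fit *B. clausii* had 3 of the 10 lower, Psmb8 (-0.44, adjusted p = 0.00732), Psmb10 (-0.32, adjusted p = 0.00616) and H2-K1 (-0.32, adjusted p = 0.012), where 24.9% of all genes were called. In that fit *B. bifidum* had Psmb8 (-0.38, adjusted p = 0.0186) and Psmb10 (-0.31, adjusted p = 0.00978) lower and H2-K1 higher (0.25, adjusted p = 0.0389), where 13.7% were called. The block fit of *B. clausii* minus *B. bifidum* had H2-K1 lower (-0.57, adjusted p = 0.0423), where 0.87% were called. Between strains over both slides without the block none of the 10 passed in any of the 3 pairs, where 0.0264%, 0.0132% and 0% of all genes were called for *B. clausii* minus *B. bifidum*, *B. clausii* minus *L. acidophilus* and *B. bifidum* minus *L. acidophilus*. At an unadjusted p under 0.05 the 3 pairs had 3, 3 and 0 of the 10, and 1787, 1640 and 569 of all genes. Without *B. clausii* replicate 3, the first pair had 5 and the second had 6, where 2121 and 2580 of all genes were called. Without *B. bifidum* replicate 3 the first had 1, where 453 of all genes were called.

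Several probes were present for 5 of the 10 genes, 16 probes in all, none of whose spots was saturated. The second B2m probe, spotted 10 times on each array, had -0.29 and -0.28 with *B. clausii* on slide 2 and 0.02 and -0.03 with *B. bifidum* there. On slide 1 it disagreed with the probe used, at -0.18 with *B. clausii*, -0.47 with *B. bifidum* and -0.20 and -0.21 with *L. acidophilus*. Its SD between repeated spots was 0.048 to 0.13, so that the disagreement was larger than the spot error. The other H2-K1 probes had -0.41 and -0.44, and -0.21 and -0.08, with *B. clausii* on slide 2, against -0.68 and -0.69 for the probe used. All H2-K1 probes were below 0 there, and the size differed. On slide 1 they disagreed in direction. With *L. acidophilus* the other H2-K1 probes had -0.09 and -0.15, and -0.02 and -0.07, against 0.22 and 0.34 for the probe used. With *B. bifidum* they had 0.09 and 0.10, and 0.26 and 0.26, on slide 2, and -0.04 and 0.05 on slide 1, where the probe used had 0.46. H2-K1, H2-D1 and the H2-Q genes are close copies of each other and differ between mouse strains, so that a probe may also read its neighbours. The second Psmb8 probe had -0.46 and -0.63 with *B. clausii* and -0.42 and -0.35 with *B. bifidum* on slide 2, close to the probe used. On slide 1 it was near 0, at 0.03 with *B. clausii*, -0.05 with *B. bifidum* and 0.01 and -0.05 with *L. acidophilus*, where the probe used was below 0. The second Psme2 probe had -0.38 and -0.42 with *B. clausii* on slide 2. The second Tapbp probe, a dim one, had -0.08 and -0.07 with *B. clausii* and 0.39 and 0.31 with *B. bifidum* on slide 2, and 1.77 with *B. clausii* on slide 1.

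**Figure D3:**
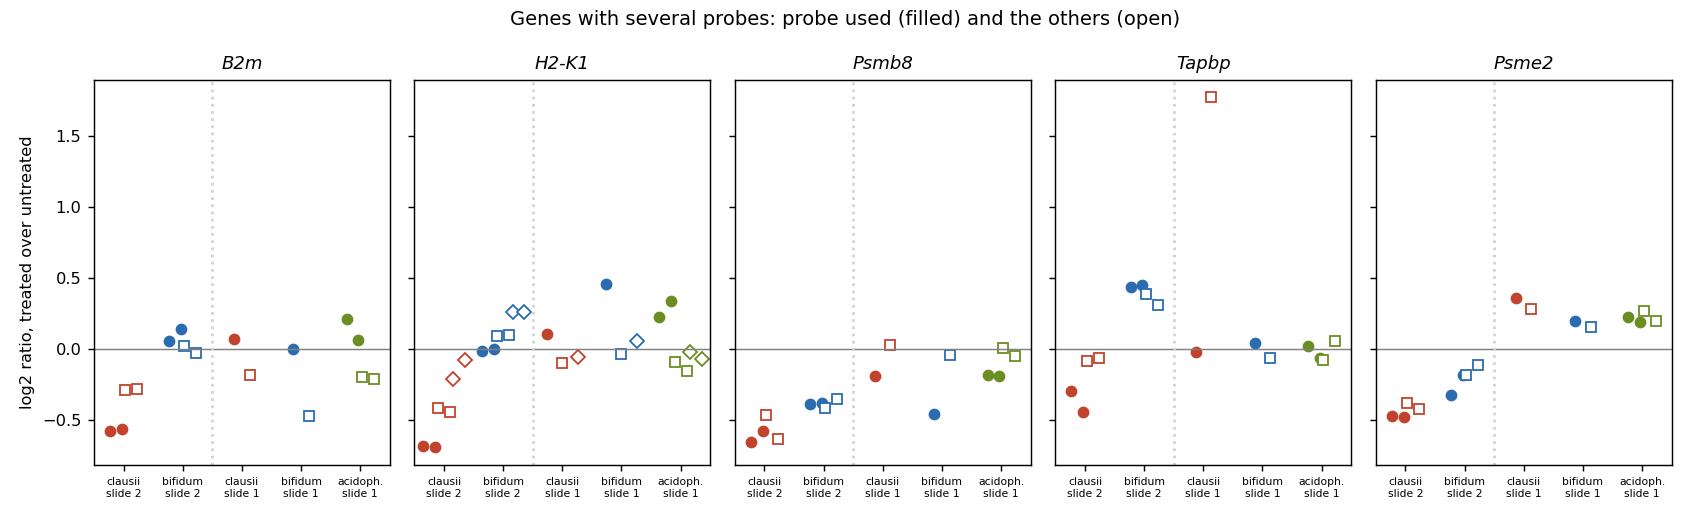
Log2 ratio of treated over untreated cells on each array for every probe of the 5 genes that have several. On slide 2 the probes of each gene lie on the same side of 0 for *B. clausii*, while the second B2m probe lies below 0 on all 4 arrays of slide 1.

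The other class I heavy chains split between the strains of slide 2. Over all genes 30.9% were lower and 24.9% higher with *B. clausii*, and 24.8% lower and 15.3% higher with *B. bifidum*. These shares also stand beside the lists below, for the fit as reported. Over the settings tried, 145 to 3869 of all genes were called higher with *B. clausii* and 27 to 2824 with *B. bifidum*. Those called lower ranged from 3362 to 5141 and from 2490 to 6545. List counts with median centring have no share of that setting beside them and are not read as results about the lists. As heavy chain probes may read neighbouring genes, the counts need not be of separate genes. With *B. clausii* 11 of 13 tested fell and none rose (median -0.43). With *B. bifidum* 6 rose and 3 fell (median 0.11), whereas with median centring none rose and 6 fell. H2-T22, a nonclassical heavy chain recognised by some gamma delta T cells, fell with both (-1.13 ± 0.05, adjusted p = 2.3e-05, and -0.79 ± 0.05, adjusted p = 0.000125). H2-D1, the other classical heavy chain measured, fell with *B. clausii* (-0.48, adjusted p = 0.000191) and rose with *B. bifidum* (0.61, adjusted p = 0.00018), and H2-Q7 did so too (-0.47, adjusted p = 0.000166, and 0.56, adjusted p = 0.000186). H2-T23, which encodes Qa-1 and presents to inhibitory receptors of natural killer cells, had -0.63 (adjusted p = 9.71e-05) and 0.35 (adjusted p = 0.00144). Between the strains H2-D1 differed by -1.09, H2-Q7 by -1.03 and H2-T23 by -0.99 (adjusted p = 0.000203, 0.000203 and 0.000295). Of the 13, 8 were lower with *B. clausii* and none higher, where 15.6% of all genes were lower. With median centring the *B. bifidum* values of H2-D1, H2-Q7 and H2-T23 were -0.37, -0.38 and -0.62.

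Among 7 genes that trim peptides or help to load them, 3 rose and 2 fell with *B. clausii* on slide 2, and 4 rose and 2 fell with *B. bifidum*, where with median centring none rose and 3 and 4 fell. Uggt1, which checks the folding of glycoproteins including class I, fell with both (-1.13 ± 0.09, adjusted p = 0.000118, and -1.10 ± 0.09, adjusted p = 0.000251). Canx, the chaperone calnexin that binds new heavy chains, rose with both (0.61, adjusted p = 0.000119, and 0.41, adjusted p = 0.000882). The *B. bifidum* call of Canx was lost with the processed signals (0.35, adjusted p = 0.158), the deposited table (0.35, adjusted p = 0.16) and the mean of its probes (0.098, adjusted p = 0.11). Erap1, the aminopeptidase that trims peptides inside the endoplasmic reticulum, fell with both (-0.34, adjusted p = 0.0011, and -0.49, adjusted p = 0.000427), but with the processed signals the *B. clausii* value was -0.017 (adjusted p = 0.877). Lnpep, an aminopeptidase of endosomes, rose with both (0.40, adjusted p = 0.000415, and 0.22, adjusted p = 0.00718), the *B. bifidum* call being lost without *B. bifidum* replicate 1 (adjusted p = 0.072). H13, a signal peptide peptidase, rose with *B. bifidum* (0.47, adjusted p = 0.000448) and had 0.07 with *B. clausii* (adjusted p = 0.239). With the processed signals H13 rose with *B. clausii* (0.36, adjusted p = 0.0157), as it did with the deposited table (adjusted p = 0.015) and the mean of its probes (0.24, adjusted p = 0.0024), which for *B. bifidum* gave 0.080 (adjusted p = 0.142). The rises of Canx, Lnpep and H13 did not keep their sign with median centring.

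The other proteasome genes were mixed in direction. Of 16 other 20S core subunits and assembly factors, 10 rose and 2 fell with *B. clausii* on slide 2 (median 0.16), and with median centring none rose and 4 fell. The alpha subunits Psma4 (0.89 ± 0.05, adjusted p = 3.93e-05) and Psma2 (0.80 ± 0.05, adjusted p = 6.79e-05) rose, and the noncatalytic beta subunit Psmb2 (-0.68 ± 0.04, adjusted p = 0.000153) fell. With *B. bifidum* 4 of the 16 rose and 6 fell (median -0.10), among them Psmb2 (-0.80, adjusted p = 0.000197) and the assembly chaperone Psmg1 (-0.50, adjusted p = 0.00118) lower and the beta subunit Psmb3 (0.43, adjusted p = 0.00159; -0.57 with median centring) higher. Between the strains 10 of the 16 were higher with *B. clausii* and none lower, where 15.8% of all genes were higher, and this count was 0 with median centring. Of 20 genes of the 19S cap and other activators, 6 rose and 9 fell with *B. clausii* (median -0.11) and 4 rose and 7 fell with *B. bifidum* (median -0.01), while with median centring none rose and 12 and 18 fell. Psmc5, an ATPase of the cap, fell with both (-0.66, adjusted p = 6.6e-05, and -0.68, adjusted p = 0.000138), as did the cap subunit Psmd13 (-0.71, adjusted p = 0.000303, and -0.80, adjusted p = 0.000351) and Psme4, the activator PA200 (-0.52, adjusted p = 0.000107, and -0.35, adjusted p = 0.000833). Psmc4, another ATPase, had 0.51 (adjusted p = 0.000246) and 0.39 (adjusted p = 0.00119; 0.0903 with the processed signals), and -0.17 and -0.53 with median centring.

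**Figure D4:**
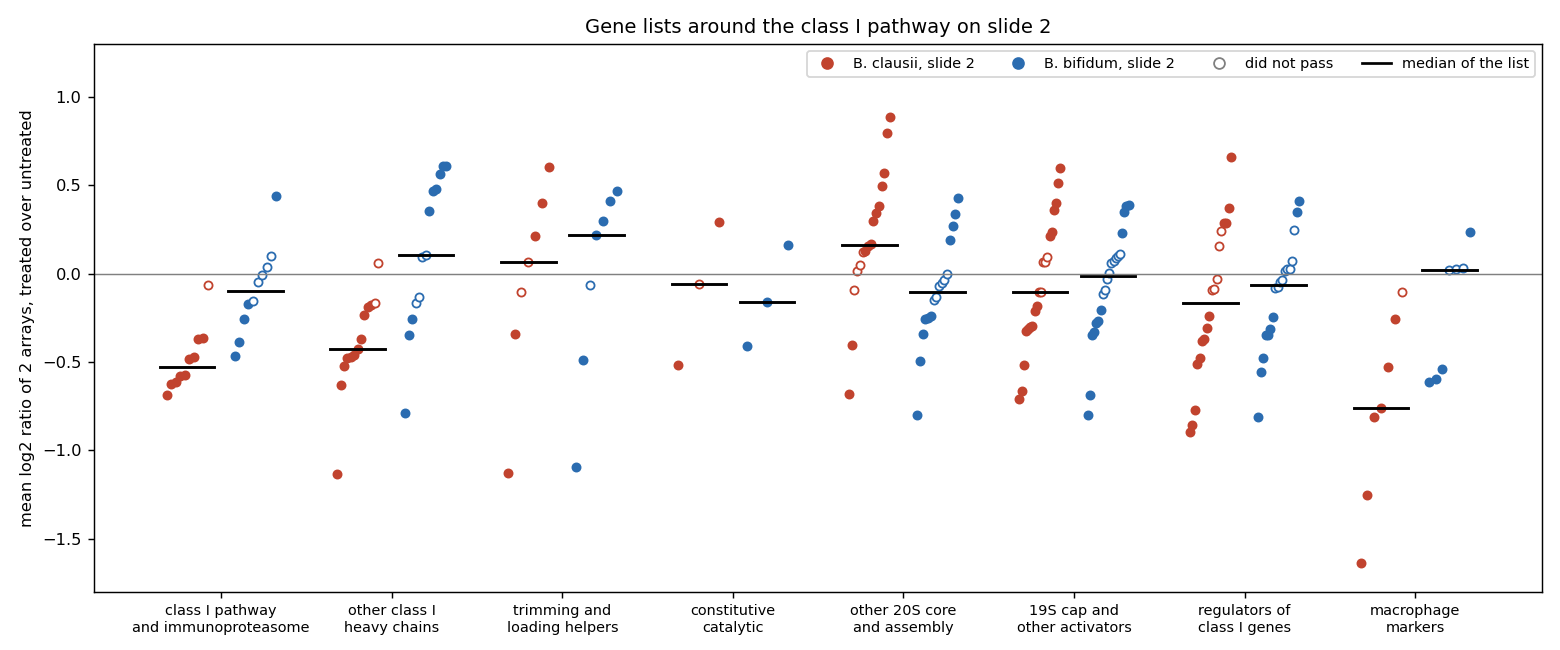
Log2 ratio of treated over untreated cells on slide 2 for each gene of the 10 and of the related lists, with *B. clausii* left of *B. bifidum* and the list's median marked. The medians of the 10 genes and of the other heavy chains are -0.53 and -0.43 with *B. clausii*, and those of the 20S core lie on opposite sides of 0 with the 2 strains.

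Of 18 regulators of class I genes tested, 9 fell and 4 rose with *B. clausii* on slide 2 (median -0.17), and 7 fell and 2 rose with *B. bifidum* (median -0.06), while with median centring 11 and 13 fell and none rose. Ifnar1, a chain of the type I interferon receptor, fell with both (-0.89, adjusted p = 3.25e-05, and -0.55, adjusted p = 0.000275), as did Irf2, an interferon regulatory factor that mostly acts as a repressor (-0.77, adjusted p = 5.13e-05, and -0.81, adjusted p = 0.000111). Ifngr2, a chain of the interferon gamma receptor, had -0.24 with *B. clausii* (adjusted p = 0.00331) and 0.41 with *B. bifidum* (adjusted p = 0.000569; -0.50 with median centring). Nlrc5, singled out after its values were seen, did not pass with either strain (-0.09, adjusted p = 0.086, and 0.02, adjusted p = 0.671).

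Macrophage markers were lower on the same arrays. With *B. clausii* on slide 2, 6 of 7 fell and none rose. Their median log2 ratio was -0.77 and -0.73 on these arrays and 0.01 on the *B. clausii* array of slide 1. With *B. bifidum* it was 0.02 and -0.04 on slide 2 and 0.19 on slide 1, and with *L. acidophilus* 0.12 and 0.11. Lyz2, a lysozyme of macrophages, fell by 1.64 ± 0.04 on the log2 scale with *B. clausii* (adjusted p = 1.36e-05) and by 0.62 with *B. bifidum* (adjusted p = 0.000179). Mpeg1, a pore-forming protein of macrophages, fell with *B. clausii* (-1.25, adjusted p = 1.53e-05) and had 0.03 with *B. bifidum* (adjusted p = 0.648). The Fc receptor Fcgr1 had -0.76 (adjusted p = 5.66e-05) and -0.60 (adjusted p = 0.00025), and the transcription factor Spi1 had -0.81 (adjusted p = 9.63e-05) and -0.54 (adjusted p = 0.000754). The part of this shift in the values of the 10 genes was not tested.

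Across the 8 arrays the 45 pairs of the 10 genes had Pearson correlations of their log2 ratios from -0.45 to 0.98, with a median of 0.59. The arrays share slides, so these values are a description. Psmb9 and Psme1 were the most alike (0.98), and Tap2 and Psmb10 the least (-0.45). Among 14931 genes outside the 10, those whose log2 ratios were most like the mean of the 10 over the 8 arrays were Atg12 (r = 0.998), Sapcd1 (r = 0.996), Creg1 (r = 0.993), Gdpd1 (r = 0.992) and Lgals3bp (r = 0.992). Atg12, which encodes a ubiquitin-like protein of autophagy, had -0.91 and -0.97 with *B. clausii* on slide 2 and 0.01 on slide 1. Atg12 had -0.27 on both *B. bifidum* arrays of slide 2 and -0.17 on slide 1, and -0.04 and -0.07 with *L. acidophilus*. Lgals3bp, a secreted galectin-binding protein, had -1.17 and -1.16 with *B. clausii* on slide 2 against 0.26 on slide 1. In both the *B. clausii* arrays of slide 2 lay apart from the other 6.

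The untreated channels differed between the slides, where cells, labelling and scan cannot be told apart. The Cy3 level is given as log2 intensity after quantile normalization over the 8 Cy3 channels, without a test, since nothing says that the untreated channels of a slide are separate cultures. Levels of different genes come from different probes and are not set against each other. B2m had 14.79, 14.70, 14.76 and 14.84 in the untreated channels of slide 2 and 14.02, 13.08, 13.55 and 13.90 in those of slide 1. Psme2 had 14.89, 14.98, 14.61 and 14.89 on slide 2 and 13.72, 11.92, 13.28 and 13.51 on slide 1. In both the slides did not overlap, and slide 2 was higher by 1.13 for B2m and by 1.73 for Psme2. Without *B. clausii* replicate 3 the differences were 0.95 for B2m and 1.34 for Psme2. With the mean of each gene's probes they were 0.66 for B2m and 1.64 for Psme2, so that the size for B2m depended on the probe.

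Tapbp (13.67 ± 0.16 on slide 2 and 12.78 ± 0.32 on slide 1, SD, n = 4 each), Psmb10 (13.41 ± 0.13 and 12.69 ± 0.63) and Psme1 (13.81 ± 0.17 and 13.06 ± 0.10) were also higher on slide 2 without overlap. For Tap1, Tap2, Psmb8, Psmb9 and H2-K1 the slides overlapped. For Tap1 this came from *B. clausii* replicate 3 alone (8.59), whose Cy3 signal was not well above background. Without that array Tap1 reached at most 7.94 on slide 1, against a lowest value of 8.34 on slide 2. Thus 5 of the 10 were higher on slide 2 without overlap and none lower, where 22.8% of all genes were higher, 14.3% lower and 37.1% without overlap in all. The median difference was 0.56 for the 10 and 0.11 for all genes. Psmb8 averaged 13.88 on slide 2 and 13.83 on slide 1 and H2-K1 14.42 on slide 2 and 14.27 on slide 1, and their differences changed sign between settings, from -0.11 to 0.52 for Psmb8 and from -0.12 to 0.16 for H2-K1. The other 8 kept their sign. Genes whose untreated level was higher on slide 2, such as Psme2 and B2m, thus had their *B. clausii* ratios on slide 2 taken against a higher untreated level, and the part of this in the ratios was not tested.

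**Figure D5:**
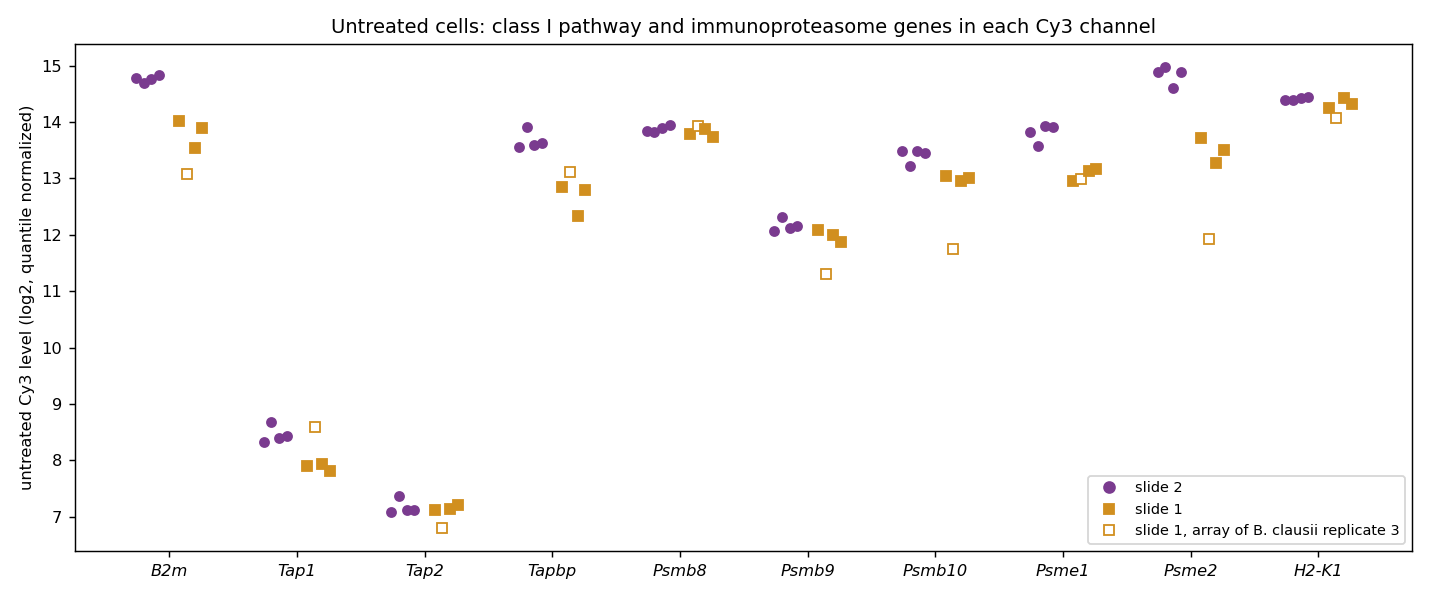
Normalized log2 Cy3 level of the untreated channel on each array for the 10 genes, slide 2 left of slide 1. B2m, Tapbp, Psmb10, Psme1 and Psme2 lie higher on slide 2 without overlap.

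Among the 18 regulators, 7 were higher in the untreated channels of slide 2 without overlap, 3 were lower and 8 overlapped, with a median difference of -0.14. The values of 4, all of them higher on slide 2, were singled out after they were seen, and the 3 lower regulators are not named. Irf9, a DNA-binding factor of the interferon response, averaged 11.27 on slide 2 and 8.55 on slide 1, a difference of 2.71 (1.55 to 3.22 over the settings). Stat2 averaged 10.01 on slide 2 and 8.07 on slide 1. Irf1, a direct activator of class I genes, averaged 11.40 on slide 2 and 10.35 on slide 1, a difference of 1.05. With the mean of its probes this was 0.53. Ifnar2, the other chain of the type I interferon receptor, was higher on slide 2 by 1.27. Each of the 4 kept its sign in every setting of the Cy3 channel that was tried. Of the 13 other 20S core genes compared 5 were higher without overlap and none lower, and of the 13 other heavy chains 2 were higher and 4 lower. Of the 7 macrophage markers 1 was higher and 2 were lower, and S100a8, also singled out, averaged 7.12 on slide 2 and 14.60 on slide 1.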

How the data were processed

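The deposited scanner files, 1 per array, hold the brightness of each spot and its background as linear intensity. They come from Agilent Feature Extraction 10.7.3.1 per the file headers and 10.5.1.1 per the submitters' processing notes. Per the file headers, the software also subtracted background and balanced the dyes of each array to give a processed intensity and, from it, a log10 ratio (Cy5 over Cy3). The table that the authors deposited equalled this log10 ratio to within 0.005, which settles its scale and direction, and its column medians were 0. The files name the mouse build mm9.

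Median signals were used, since the planned mean signals were not among the columns used here. They were corrected with normexp (offset 50) and loess within each array in limma 3.58.1 (R 4.3.3), with control spots at weight 0. Outlier and saturated spots were left out and spots of a probe averaged. Of 41174 probes, 28566 passed the filter, which asked for a signal well above background in either channel of 2 or more arrays. Names came from transcript accessions through a RefSeq gene table of GRCm38.p6, which matched 29169 of 43379 probe features. Each of 15182 genes was represented by the probe measured on most arrays and then the brightest. Of these, 241 lacked a value on some array.

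A mean per strain, and a mean per strain and slide, were fitted with lmFit and eBayes over all 8 arrays, tested against 0 or between means, and adjusted by the Benjamini-Hochberg method over all genes with a threshold of 0.05. The steps were tested on simulated data. The genes and the lists were chosen with earlier results of these data known. All 10 genes are named, as are Psmb5, Psmb6 and Psmb7, up to 3 passing genes with the smallest p from each list on slide 2, and the 5 genes most like the mean of the 10. 1 gene that the rule names is not reported here. Of 129 listed genes 121 had a probe. Replicate numbers were checked for pairing: 7 pairs of same-numbered arrays correlated between -0.0890 and 0.456, 3 of them over 0.1, so the numbers were not taken to pair arrays. Alternatives were no background correction, processed signals, the deposited table, median centring, a strict filter for dim probes or none, averaging the probes of a gene, a robust intensity trend, slide and replicate blocks, the compared strains' arrays alone, slide 2 alone and each array left out.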

Additional observations from a re-analysis of the deposited data

Results flagged for a closer look

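The *B. clausii* ratios on slide 2 differed from that on slide 1 by limma's test of the difference for 8 of the 10 genes, with slide 2 lower by log2 differences of -0.64 for B2m, -0.35 for Tapbp, -0.43 for Psmb8, -0.76 for Psmb9, -0.34 for Psmb10, -0.84 for Psme1, -0.84 for Psme2 and -0.80 for H2-K1. The same test for *B. bifidum* gave 0.42 for Tap2, 0.40 for Tapbp, -0.31 for Psmb10, -0.45 for Psme2 and -0.46 for H2-K1. The slide 1 side of each difference is 1 array.

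In the untreated Cy3 levels, a single array lay far from the other 3 of its slide in 4 cases. Chance gives about 1 in 20 groups if the groups are independent. Genes on the same array are not independent, so that this rate cannot be set against the number of cases. On slide 1 these were *B. clausii* replicate 3 for Tap1 (8.59, not well above background) and for Psmb10 (11.7). On slide 2 they were *B. bifidum* replicate 2 for Tap2 (7.38) and for Psmb10 (13.2).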

How the results depend on the processing

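The number of the 10 genes called with *B. clausii* on slide 2 (9) was 8 or 9 under every alternative run, the arrays of slide 2 fitted alone, an alternative chosen after seeing the data, among them. The other counts depended more on the processing, and where no cause is named it was not tested. Calls over all genes moved too. *L. acidophilus* on slide 1 had 1828 of all genes called as reported, 3630 with the robust trend and 62 with processed signals. It had 3291 with the strict filter, 1194 with the mean of probes, 981 with no filter and 11 with the deposited table. *B. clausii* over both slides had 692 of all genes called as reported and 917 with the strict filter. With *B. clausii* over both slides (1 called) the count was 0 without background correction, with processed signals, the deposited table, median centring, the mean of probes, the robust trend and the strain's own arrays alone, 2 with the strict filter, 3 with the slide as a block, and 0 to 9 when single arrays were left out, 9 being without *B. clausii* replicate 3. For *B. bifidum* over both slides (0 called) it was 3 with the slide block and 0 to 2 with arrays left out. For *B. clausii* minus *B. bifidum* over both slides (0) it was 1 with the slide block and 0 to 5 with arrays left out, for *B. clausii* minus *L. acidophilus* (0) 0 to 6, and for *B. bifidum* on slide 2 (5) 3 to 5. With median centring, which removes no trend with brightness, *B. clausii* minus *B. bifidum* on slide 2 (6) and *B. clausii* slide 2 minus slide 1 (8) had 0. With arrays left out they had 5 to 6 and 6 to 9. *B. bifidum* slide 2 minus slide 1 (5) had 1 with processed signals and the deposited table, 0 with median centring, 3 with no filter and 2 to 5 with arrays left out. *L. acidophilus* on slide 1 (4) had 0 with processed signals, the deposited table and median centring, 1 with no filter, 7 with the strict filter, 2 with the mean of probes, 8 with the robust trend and 0 to 4 with arrays left out, 0 being without *L. acidophilus* replicate 2. The untreated Cy3 count (5) was 6 without *B. clausii* replicate 3, also chosen after seeing the data. The replicate number was also used as a block, although the numbers do not pair the arrays. The counts over both slides were then 5 for *B. clausii*, 2 for *B. bifidum* and 1 for *L. acidophilus*, where 4264, 2177 and 498 of all genes were called. They were 5 for *B. clausii* minus *L. acidophilus* and 1 for *B. bifidum* minus *L. acidophilus*, where 3077 and 1414 of all genes were called.

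Signs turned mostly with median centring. With *B. bifidum* on slide 2 it gave -0.89 for B2m, -0.53 for Tapbp, -0.55 for Canx, -0.36 for H13, -0.37 for H2-D1, -0.38 for H2-Q7, -0.62 for H2-T23, -0.50 for Ifngr2, -0.57 for Lnpep, -0.94 for Mpeg1, -0.67 for Psma2, -0.63 for Psma4, -0.57 for Psmb3, -0.82 for Psmb6 and -0.53 for Psmc4. With *B. clausii* on slide 2 it gave -0.037 for Canx, -0.27 for Lnpep, -0.077 for Psmb3, -0.30 for Psmb6, -0.17 for Psmc4 and -0.66 for Psmg1. It also gave 0.074 for Psmb8 in *B. clausii* minus *B. bifidum* on slide 2, 0.36 for Psmb8 with *L. acidophilus* on slide 1 and -0.41 for Tapbp in *B. bifidum* slide 2 minus slide 1. The mean of probes gave 0.12 for H2-K1 and -0.15 for Mpeg1 with *B. bifidum* on slide 2 and 0.16 for H13 in *B. clausii* minus *B. bifidum* there. Psmb7 with *B. clausii* on slide 2 was at 0.24 with processed signals and with the deposited table. Psmb8 with *B. clausii* over both slides kept its sign, with adjusted p values of 0.0516 to 0.345 where its call was lost. The Tap1 call with *B. clausii* on slide 2 was lost without background correction (adjusted p = 0.0705) and without either *B. bifidum* array of slide 2 (0.0613). The dim probes of Tap1 and Tap2 limit what can be read from their ratios.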
